A study of Sus scrofa with 7 samples.

Results

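Cadherins, claudins, connexins and the proteins that anchor them build the contacts between neighbouring cells, and their transcripts were measured here in 7 porcine cell lines by RNA sequencing. The genes were chosen by symbol alone: every row of the deposited gene table whose name is that of a classical or atypical cadherin, a desmosomal cadherin, desmoplakin, plakoglobin or a plakophilin, a claudin, a MARVEL-domain protein, F11R, cingulin or a ZO protein, or a connexin. This gave 65 genes of the 29510 listed: 19 cadherins, 11 desmosomal genes, 25 tight junction genes and 10 connexins. Of these, 7 had no count in any library, and 42 passed the filter on low counts and were tested. A further 8 rows have no name in the deposited table but are paired by identifier with a symbol of the same families in a reference gene table (OCLN, TJP1, PKP3, PKP4, MARVELD2, MARVELD3, DSC1 and GJC3). They are described as rows named by the reference table and are not counted among the 65. No row carried the symbols CDH5, CLDN1 or GJB2.

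The lines were 3 porcine extra-embryonic endoderm (pXEN) lines, 2 naïve-like embryonic stem cell (nESC) lines and 2 primed embryonic stem cell (pESC) lines, with 1 library per line. The pXEN lines came from inner cell masses of parthenogenetic blastocysts, were grown on mouse embryonic fibroblasts in LCDM medium (LIF, CHIR99021, dimethindene maleate and minocycline), and were at passages 26, 26 and 23. The nESC lines were derived from inner cell masses, were grown on mouse embryonic fibroblasts with FGF, LIF, the MEK inhibitor PD0325901, CHIR99021, the TGFβ receptor inhibitor SB431542 and doxycycline, and were at passages 21 and 22. The pESC lines had been converted from naïve-like cells, were grown on STO fibroblasts without these inhibitors, and were both at passage 20. Cell type and medium therefore changed together, as did the feeder layer between the pESC lines and the others, and these cannot be told apart. The libraries held between 10408164 and 12995720 counts on genes, and 3 counts, used as the floor of detection, correspond to 0.231 to 0.288 CPM (counts scaled to a common library size). All pXEN lines carried extra-embryonic endoderm transcripts: the summed level of 7 fixed markers was 829 to 1066 FPKM in the pXEN lines and 9.81 to 12.3 FPKM in the ESC lines, although SOX7 was at or near 0 in all libraries. POU5F1, the defining pluripotency factor, was listed at no more than 0.284 FPKM in any library, the ESC lines included. The paper reported OCT4, its protein, in nESCs by immunofluorescence and western blot, and in primed ESCs by immunofluorescence. Whether this row captures the gene was not tested. SOX2 was at 102 to 154 FPKM in the ESC lines and at no more than 1.98 FPKM in the pXEN lines. The 6 listed pluripotency markers summed to 33.1 to 48.4 FPKM in the pXEN lines. Their sums were 134 and 165 FPKM in the nESC lines and 549 and 539 FPKM in the pESC lines. Of 4 tested, 2 were higher and 1 lower in pXEN cells than in nESCs, and 1 higher and 3 lower than in pESCs. Fibroblast markers summed to 247 FPKM in pXEN line 2, to 17.9 and 20.9 FPKM in pXEN lines 1 and 3, to 7.91 and 9.77 FPKM in the nESC lines and to 44.0 and 73.6 FPKM in the pESC lines.

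Epithelial cells hold together through several kinds of junction. At the adherens junction, cadherins bind their like on the neighbouring cell and are tied to actin by catenins. Desmosomes use their own cadherins, the desmogleins and desmocollins, which plakoglobin, plakophilins and desmoplakin couple to keratin filaments. Tight junctions seal the space between cells with claudins and occludin, held by ZO proteins and cingulin. Gap junctions are channels of connexins that let small molecules pass from cell to cell. The primitive endoderm forms as an epithelium on the surface of the epiblast and gives rise to the visceral endoderm, which stays epithelial, and to the parietal endoderm, whose cells migrate away from it. A switch from E-cadherin to N-cadherin is a familiar mark of the change from an epithelial to a mesenchymal state.

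Levels below are in FPKM, fragments per kilobase of gene scaled to the size of the library, which can be compared between genes. Fold changes are on the log2 scale from edgeR's quasi-likelihood test on the counts, in which p values were adjusted by the Benjamini-Hochberg method over the 17447 genes tested and values below 0.05 were taken as calls. Each is given with its standard error (SE). The p values measure the spread between lines of 1 type, and n is 3 pXEN, 2 nESC and 2 pESC lines throughout. Since RNA was taken from whole cultures, fewer cells that express a gene and less RNA per cell cannot be told apart.

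The junction genes tested were called higher in pXEN cells in larger number than lower, against either kind of ESC, and nESCs had the lowest summed levels of desmosomal, tight junction and gap junction genes. Against nESCs, 26 of the 42 tested genes were higher and 5 lower in pXEN cells. Of all genes tested, 54.5% were called in this comparison, 28.3% as higher and 26.2% as lower. Against pESCs, 23 were higher and 9 lower, beside 23.9% and 24.4% of all genes (48.3% in all). Between the ESC types, 18 were higher and 3 lower in pESCs than in nESCs, beside 19% and 13.3% (32.2% in all). The same shares stand beside the counts given below for each junction type, on which no test was run. The median log2 fold change over the tested genes was 3.03 for pXEN over nESC, 0.74 for pXEN over pESC and 1.62 for pESC over nESC, where the medians over all genes tested were within 0.02 of 0. With genes silent or nearly so in 1 group set at their bounds or ratios, the first median was 2.999 and the other two did not move. A gene that is at 0 in most lines passes the filter only through the group where it is high, so these counts describe the genes that passed it and not the families as a whole. Of the 42, 23 were higher in pXEN cells than in both ESC types, beside 18.1% of all genes tested, and both of these comparisons use the same pXEN libraries. CDH11 and DSC3 were lower than in both, beside 15.5% of all genes, and GJA1 lay between the ESC types. With pESC line 1 left out, which leaves a single pESC line, 15 genes were called higher and 5 lower than in pESCs, and with nESC line 1 left out, 3 in place of 5 were called lower than in nESCs. Without pXEN line 2, the line with the most fibroblast transcripts, 25 were higher and 6 lower than in nESCs, and 22 higher and 9 lower than in pESCs.

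**Figure D1:**
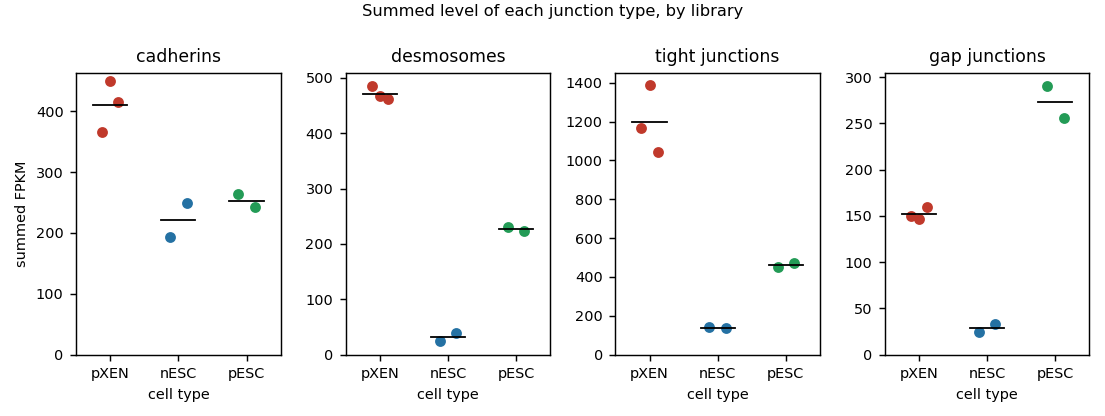
Summed FPKM of the named members of each junction type in each library (points; the bar is the mean of the 3 pXEN, 2 nESC or 2 pESC lines, and each panel has its own axis from 0). Desmosomal and tight junction sums were highest in all 3 pXEN lines and lowest in both nESC lines, whereas connexin sums were highest in the pESC lines.

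Summed by junction type, the desmosomal genes reached 461 to 485 FPKM in the pXEN lines, 230 and 223 FPKM in the pESC lines and 23.6 and 39.6 FPKM in the nESC lines. The tight junction genes summed to between 1043 and 1386 FPKM in the pXEN lines, to 450 and 470 FPKM in the pESC lines and to 140 and 135 FPKM in the nESC lines. Cadherin sums varied over a narrower range, with 366 to 450 FPKM in the pXEN lines, 193 and 249 FPKM in the nESC lines and 264 and 243 FPKM in the pESC lines. Connexins had another order, since the pESC lines, at 291 and 255 FPKM, stood above the pXEN lines, at 147 to 160 FPKM, and the nESC lines, which were at 24.4 and 32.9 FPKM. With the rows named by the reference table added, the desmosomal sums were 531 to 558 FPKM in the pXEN lines, 265 and 258 FPKM in the pESC lines and 52.4 and 69.3 FPKM in the nESC lines. The tight junction sums were then 1236 to 1616 FPKM, 530 and 549 FPKM, and 167 and 171 FPKM in the same order. No test was run on these sums.

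**Figure D2:**
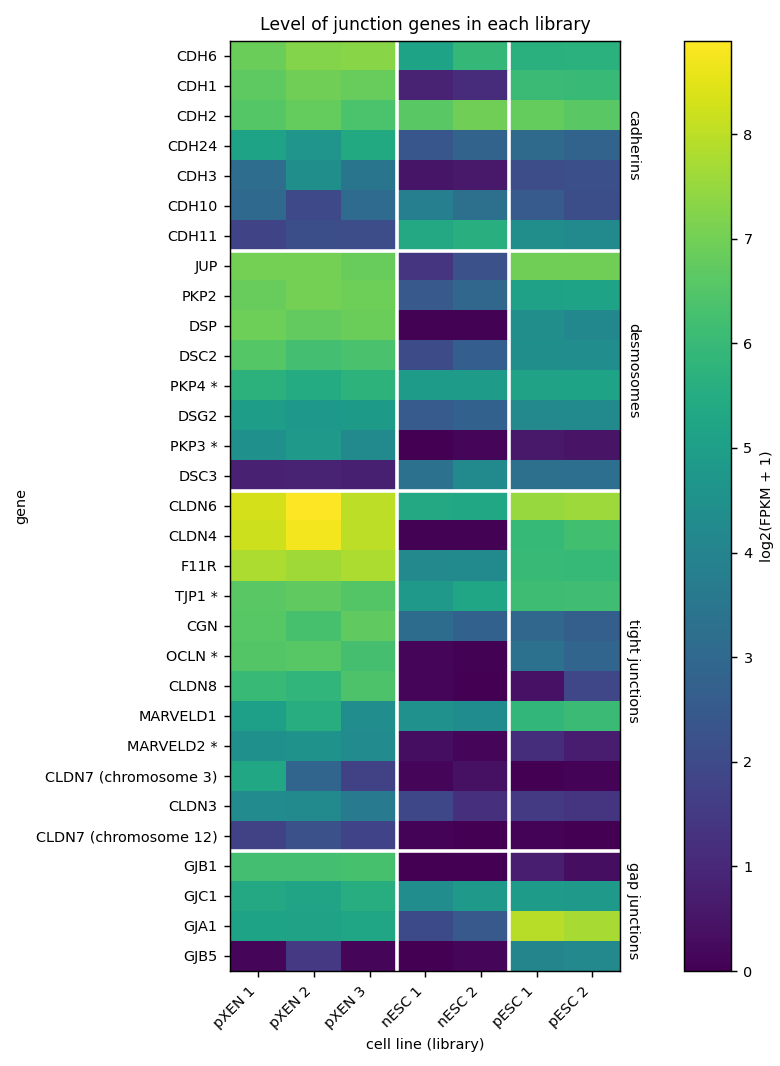
Level of each described junction gene in each library as log2(FPKM + 1), grouped by junction type and ordered within a type by the pXEN mean; an asterisk marks a row named by the reference table. Most rows are bright in the 3 pXEN columns, dark in the 2 nESC columns and between them in the 2 pESC columns; CDH2 is bright throughout, CDH11 and DSC3 are brighter in all ESC columns than in the pXEN columns, and GJA1 and GJB5 are brightest in the pESC columns.

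Of the 12 cadherins tested, 6 were higher and 2 lower in pXEN cells than in nESCs, and 6 higher and 3 lower than in pESCs. The pXEN lines carried E-cadherin and N-cadherin transcripts at similar FPKM, while nESCs carried almost no E-cadherin transcript. CDH1 encodes E-cadherin, the main epithelial cadherin. Its level was 102, 123 and 111 FPKM in pXEN lines 1, 2 and 3, 0.798 and 1.21 FPKM in the nESC lines and 66.4 and 62.6 FPKM in the pESC lines. The 3 groups did not overlap. CDH1 was 6.79 (SE 0.23) log2 units higher in pXEN cells than in nESCs (adjusted p = 4.75e-07), 0.81 (SE 0.13) higher than in pESCs (adjusted p = 0.00182), and 5.99 (SE 0.24) higher in pESCs than in nESCs (adjusted p = 4.35e-06). The listed CDH1 row is a fragment of 1135 bases on an unplaced scaffold of Sscrofa10.2 (GL895865.1:35227-45106). Its FPKM set beside that of other genes, in ratios and shares as well, is therefore uncertain.

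CDH2, which encodes N-cadherin, did not follow CDH1. It was at 92.8, 109 and 81.5 FPKM in the pXEN lines, 97.4 and 123 FPKM in the nESC lines and 109 and 96.6 FPKM in the pESC lines. All 3 groups overlapped. The difference was -0.23 log2 units (95% interval -0.60 to 0.14) between pXEN cells and nESCs and -0.12 (-0.48 to 0.25) between pXEN cells and pESCs, and neither passed the test (adjusted p = 0.254 and 0.578). Without pXEN line 2, the line with the most fibroblast transcripts, the first was -0.35 and passed it (adjusted p = 0.0444). The ratio of CDH1 to CDH2 FPKM was therefore 1.10, 1.13 and 1.36 in the pXEN lines, 0.607 and 0.648 in the pESC lines, and 0.00820 and 0.00979 in the nESC lines. No cell type showed a low CDH2 beside a high CDH1.

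CDH6, or K-cadherin, a type II cadherin of kidney and other epithelia, had the highest cadherin level in each pXEN line, at 117, 150 and 158 FPKM. It was at 34.9 and 59.7 FPKM in the nESC lines and at 48.9 and 50.5 FPKM in the pESC lines, so that every pXEN line was above every ESC line and the ESC types overlapped. CDH6 was 1.58 (SE 0.22) log2 units higher than in nESCs (adjusted p = 0.000813) and 1.52 (SE 0.22) higher than in pESCs (adjusted p = 0.0012). The gene lies on chromosome 16 (16:18351301-18479581), whose genes had a median log2 difference of -0.71 between pXEN cells and nESCs and of -0.03 between pXEN cells and pESCs, so the CDH6 difference in the first comparison had the opposite sign to the median of its chromosome. CDH24, a less studied type II cadherin, was at 35.0, 23.7 and 41.1 FPKM in the pXEN lines against 4.24 and 6.15 FPKM in the nESC lines and 7.51 and 6.10 FPKM in the pESC lines. The ESC lines overlapped and the pXEN lines stood above them, by 2.67 (SE 0.26) log2 units over nESCs (adjusted p = 0.000118) and 2.29 (SE 0.25) over pESCs (adjusted p = 0.00031). The CDH24 row overlaps an unnamed row on the same strand that holds more counts than CDH24 itself, so its counts are uncertain.

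CDH3, which encodes P-cadherin, was also higher in pXEN cells. Levels were 8.10, 20.6 and 9.94 FPKM in the pXEN lines, 0.429 and 0.520 FPKM in the nESC lines and 3.30 and 3.54 FPKM in the pESC lines. The groups did not overlap, although pXEN line 2 was 2.54 times pXEN line 1. The difference was 4.74 (SE 0.56) log2 units from nESCs (adjusted p = 0.000217) and 1.92 (SE 0.41) from pESCs (adjusted p = 0.00747), and pESCs were 2.81 (SE 0.60) above nESCs (adjusted p = 0.00775). The call against pESCs was lost without pESC line 1 (adjusted p = 0.060) or line 2 (0.0542), and that between the ESC types without nESC line 1 (0.0629).

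CDH11, or OB-cadherin, a type II cadherin of mesenchymal cells and osteoblasts, went the other way. It was at 2.57, 3.42 and 3.25 FPKM in the pXEN lines, 40.3 and 47.5 FPKM in the nESC lines and 19.9 and 17.5 FPKM in the pESC lines. Every pXEN line was below every ESC line. CDH11 was 14.3-fold lower in pXEN cells than in nESCs (log2 change -3.84, SE 0.15, adjusted p = 1.43e-06) and 6.03-fold lower than in pESCs (-2.59, SE 0.15, adjusted p = 1.02e-05), and it was lower in pESCs than in nESCs (-1.24, SE 0.16, adjusted p = 0.000995). The high sum of fibroblast markers in pXEN line 2 came with a CDH11 level of 3.42 FPKM, beside 3.25 FPKM in line 3. CDH10, a cadherin of the nervous system, was at 7.20, 2.94 and 7.53 FPKM in the pXEN lines, 13.3 and 8.67 FPKM in the nESC lines and 4.92 and 3.41 FPKM in the pESC lines. It was called only as lower in pESCs than in nESCs (log2 change -1.41, SE 0.44, adjusted p = 0.0421), a call that 5 of the 7 single-library omissions removed. Without pXEN line 2 it was also called higher than in pESCs (log2 change 0.83, adjusted p = 0.0222). It too lies on chromosome 16, where the median of pESC over nESC was -0.53.

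**Figure D3:**
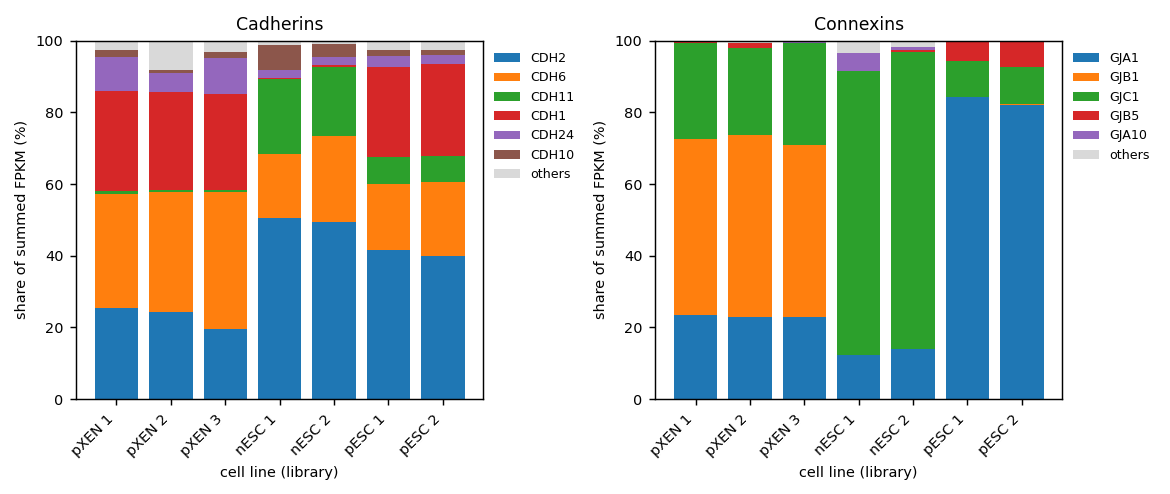
Share of each cadherin (left) and connexin (right) in the summed FPKM of its family in each library, as stacked bars from 0 to 100%. CDH1 takes about the same share in the pXEN and pESC bars and almost none in the nESC bars, and the leading connexin is GJB1 in the pXEN lines, GJC1 in the nESC lines and GJA1 in the pESC lines.

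The make-up of the cadherin pool thus differed more than its sum. In pXEN cells the mean shares of CDH6, CDH1 and CDH2 were 34.5%, 27.4% and 23.1% of the summed cadherin FPKM. In nESCs CDH2 held 49.97%, CDH6 21.0%, CDH11 20.0% and CDH1 0.449%. In pESCs CDH2 held 40.6%, CDH1 25.5%, CDH6 19.7% and CDH11 7.38%. Of the other cadherins, none reached a group mean of 10 FPKM. CDH17, or LI-cadherin of liver and intestine, had no count in any ESC line and was at 0.822, 14.7 and 0.789 FPKM in the pXEN lines, so that line 2, the line with the high sum of fibroblast markers, was 18.7 times line 3. Whether the 2 are related was not tested. It is named for this spread, after its values were seen. Against the floor of 3 counts per library it was at least 74.9-fold higher than in nESCs (adjusted p = 0.0285) and at least 82.8-fold higher than in pESCs (adjusted p = 0.0304), calls that were lost when either line of the respective ESC type was left out (adjusted p between 0.101 and 0.114). Without pXEN line 2 the bounds fell to 10.98-fold and 12.1-fold, and both calls held (adjusted p = 0.000843 and 0.000893). CDH16, the kidney-specific cadherin, was likewise without a count in the ESC lines and at 0.351, 1.09 and 1.30 FPKM in the pXEN lines. CDH7 and CDH13, both at or below 1.27 FPKM, were called lower in pXEN cells than in pESCs, and CDH22, at or below 0.585 FPKM, lower than in nESCs. The CDH7 call was lost without pESC line 1 (log2 change -1.46) or line 2 (-1.87), with DESeq2's Wald test and with the replicate block. That of CDH13 was lost without pXEN line 1 (adjusted p = 0.0880) or line 3 (0.0560). Leaving out pESC line 1 (log2 change -3.13) or line 2 (-2.78) also removed it. That of CDH22 was lost without nESC line 2 (log2 change -3.66). The 7 cadherins not tested (CDH4, CDH9, CDH12, CDH15, CDH18, CDH19 and CDH20) did not exceed 1.01 FPKM in any library, and CDH19 had no count.

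Of the 8 desmosomal genes tested, 5 were higher and 1 lower in pXEN cells than in nESCs, 4 higher and 3 lower than in pESCs, and 6 were higher in pESCs than in nESCs. Most of the abundant ones had the order pXEN, pESC, nESC. DSP encodes desmoplakin, which ties the desmosomal plaque to keratin filaments. It was at 122, 106 and 119 FPKM in the pXEN lines, at 0.0343 and 0.0356 FPKM in the nESC lines and at 20.2 and 16.6 FPKM in the pESC lines (7:4968322-5021221). The groups did not overlap. DSP was 11.65 (SE 0.34) log2 units higher in pXEN cells than in nESCs (adjusted p = 1.82e-07) and 2.66 (SE 0.12) higher than in pESCs (adjusted p = 4.95e-06), and 8.98 (SE 0.35) higher in pESCs than in nESCs (adjusted p = 9.27e-07).

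JUP encodes plakoglobin, which serves both desmosomes and adherens junctions, and its level in pXEN cells was close to that in pESCs. Its level was 129, 129 and 112 FPKM in the pXEN lines, 125 and 122 FPKM in the pESC lines and 1.53 and 3.58 FPKM in the nESC lines. The pXEN and pESC lines overlapped, and the nESC lines stood below both. The difference between pXEN cells and pESCs was 0.00 log2 units (95% interval -0.57 to 0.57, adjusted p = 0.998). Against nESCs, JUP was 5.58 (SE 0.28) log2 units higher in pXEN cells (adjusted p = 7.05e-06) and 5.58 (SE 0.30) higher in pESCs (adjusted p = 3.02e-05).

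PKP2, the plakophilin of simple epithelia and heart muscle, was at 112, 131 and 122 FPKM in the pXEN lines, 4.66 and 6.71 FPKM in the nESC lines and 32.9 and 34.5 FPKM in the pESC lines. It was 4.41 (SE 0.16) log2 units above nESCs (adjusted p = 1.76e-06) and 1.86 (SE 0.15) above pESCs (adjusted p = 6.49e-05), and pESCs were 2.55 (SE 0.17) above nESCs (adjusted p = 6.05e-05). DSC2 and DSG2 are the desmocollin and desmoglein found in all desmosome-bearing tissues. DSC2 was at 91.6, 74.5 and 80.0 FPKM in the pXEN lines, 3.196 and 5.26 FPKM in the nESC lines and 20.7 and 19.5 FPKM in the pESC lines. DSG2 was at 29.8, 26.0 and 27.4 FPKM, 4.93 and 5.82 FPKM, and 17.4 FPKM in both pESC lines, in the same order. For both genes the groups did not overlap and the order was pXEN, pESC, nESC. The DSC2 difference was 4.27 (SE 0.20) from nESCs (adjusted p = 4.55e-06) and 2.04 (SE 0.19) from pESCs (adjusted p = 0.000131). For DSG2 it was 2.36 (SE 0.12) from nESCs (adjusted p = 4.16e-06) and 0.68 (SE 0.11) from pESCs (adjusted p = 0.00186). Between the ESC types, pESCs were higher by 2.24 (SE 0.22) in DSC2 and by 1.68 (SE 0.13) in DSG2 (adjusted p = 0.000296 and 8.61e-05).

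DSC3, the desmocollin of basal layers of stratified epithelia, was the desmosomal gene lower in pXEN cells than in both ESC types. It was at 0.776, 0.840 and 0.732 FPKM in the pXEN lines, 9.29 and 18.1 FPKM in the nESC lines and 8.74 and 8.60 FPKM in the pESC lines. The log2 change was -4.13 (SE 0.31) against nESCs (adjusted p = 1.95e-05) and -3.45 (SE 0.31) against pESCs (adjusted p = 7.44e-05), while the ESC types did not differ by the test (-0.68, 95% interval -1.35 to 0.00, adjusted p = 0.115). DSC2 and DSC3 lie next to each other on 1 scaffold (JH118612.1) and moved apart: the ratio of DSC2 to DSC3 FPKM was 118, 88.7 and 109 in the pXEN lines, 0.344 and 0.290 in the nESC lines, and 2.37 and 2.26 in the pESC lines. DSC3 made up 42.5% of the summed desmosomal FPKM of nESCs and 0.166% of that of pXEN cells, and 22.0% and 0.144% with the rows named by the reference table added.

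The plakophilins also differed in which member was present. PKP1, the plakophilin of stratified epithelia, is named after its values were seen. It had no count in any pXEN or nESC line and was at 4.92 and 3.29 FPKM in the pESC lines, at least 25.7-fold above pXEN cells (adjusted p = 0.000791) and at least 28.3-fold above nESCs (adjusted p = 0.00256). The row on chromosome 2 that the reference table names PKP3 was at 21.3, 26.2 and 17.6 FPKM in the pXEN lines, 0 and 0.0913 FPKM in the nESC lines, and 0.536 and 0.396 FPKM in the pESC lines. It was 5.54 (SE 0.37) log2 units higher in pXEN cells than in pESCs (adjusted p = 2e-05) and, with few counts in nESCs, 484 times their level (95% counting interval 166 to 2351, which covers counting error only; adjusted p = 6.13e-06). PKP4, also named by the reference table, was at 51.7, 43.8 and 52.2 FPKM in the pXEN lines, 28.7 and 29.5 FPKM in the nESC lines and 33.8 and 34.7 FPKM in the pESC lines. Its differences, 0.75 (SE 0.11) from nESCs (adjusted p = 0.000668) and 0.53 (SE 0.11) from pESCs (adjusted p = 0.00441), were the smallest called among the desmosomal rows in each comparison, and the second was lost without pESC line 1 (adjusted p = 0.0504). DSG3 stayed at or below 0.344 FPKM and was called lower in pXEN cells than in pESCs (adjusted p = 0.0282), a call lost in 6 of 15 alternatives, among them the omission of pXEN line 3 or of either pESC line (adjusted p up to 0.172). DSG1 and DSG4 and the unnamed DSC1 row stayed at or below 0.264 FPKM and were not tested, and a second row named PKP3 had no count.

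**Figure D4:**
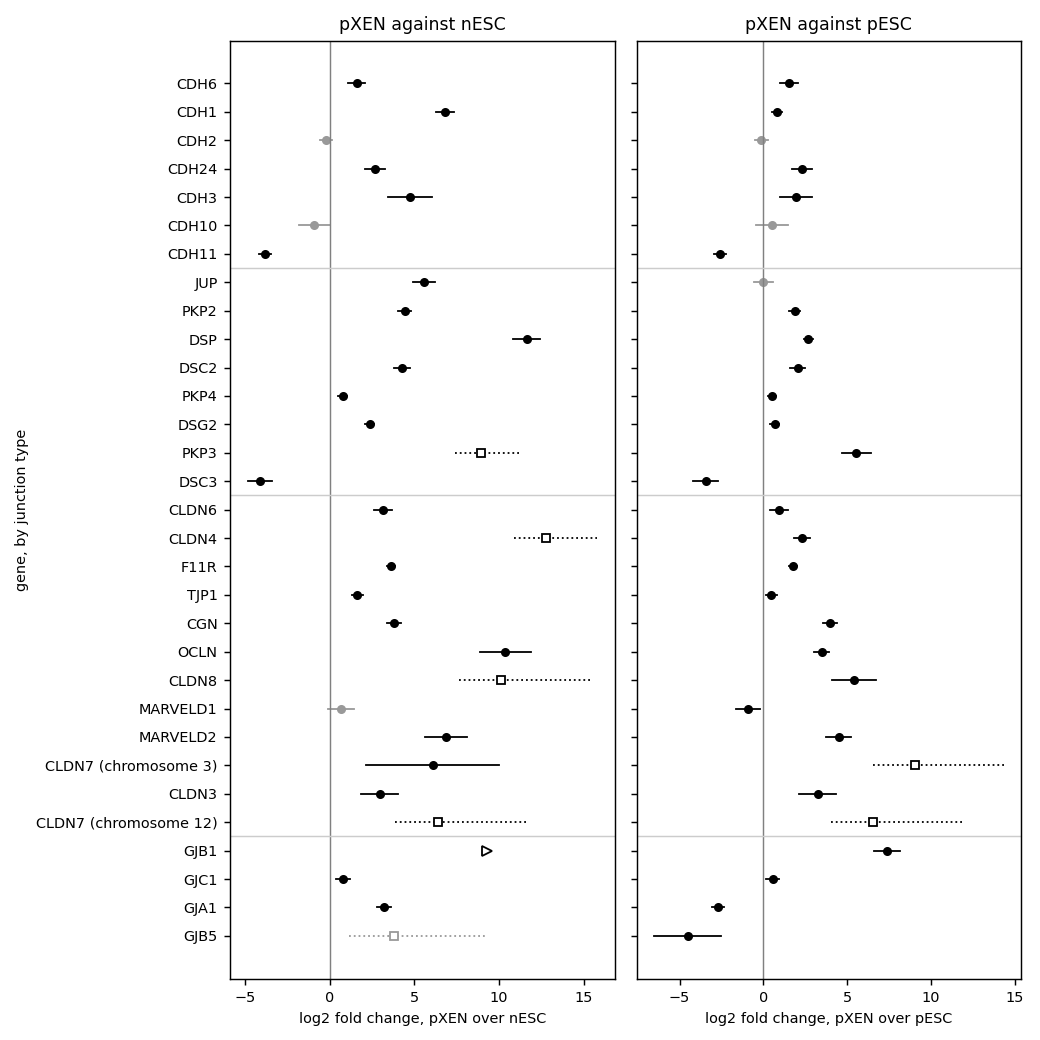
Log2 fold change of each described gene in pXEN cells over nESCs (left) and over pESCs (right). Filled circles are fitted values with 95% intervals, open squares with dotted lines are ratios with 95% counting intervals where the lower group had 1 to 3 counts, and the open triangle (GJB1) is a lower bound; grey marks an adjusted p of 0.05 or more. Most genes lie right of 0 in both panels and farther right against nESCs; CDH11 and DSC3 lie left in both, as does CDH2 with neither difference called, GJA1, GJB5 and MARVELD1 lie right of 0 against nESCs and left against pESCs, and CDH10 (grey) does the reverse.

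Of the 17 tight junction genes tested, 12 were higher and 2 lower in pXEN cells than in nESCs, 11 higher and 1 lower than in pESCs, and 6 higher and 1 lower in pESCs than in nESCs. Tight junction transcripts were the most abundant junction transcripts of pXEN cells, led by CLDN6 and CLDN4. CLDN6, a claudin of embryonic epithelia and of pluripotent cells, was at 320, 474 and 254 FPKM in the pXEN lines, 40.4 and 39.2 FPKM in the nESC lines and 184 and 190 FPKM in the pESC lines (3:40527338-40530975). The groups did not overlap. It was 3.13 (SE 0.24) log2 units higher than in nESCs (adjusted p = 4.17e-05) and 0.91 (SE 0.23) higher than in pESCs (adjusted p = 0.0144), and 2.22 (SE 0.26) higher in pESCs than in nESCs (adjusted p = 0.000747). Its call against pESCs was lost without pESC line 1 (adjusted p = 0.0913) or line 2 (0.084). CLDN6 overlaps TNFRSF12A on the opposite strand, and the strand setting used for counting is not given in the sources used here.

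CLDN4, a sealing claudin of many simple epithelia, was at 293, 423 and 256 FPKM in the pXEN lines, at 0.0462 and 0.0479 FPKM in the nESC lines and at 60.7 and 73.3 FPKM in the pESC lines (3:10776892-10780656). It was therefore nearly level with CLDN6 in pXEN cells, with a ratio of CLDN6 to CLDN4 of 0.990 to 1.12, and below it in pESCs (3.03 and 2.59) and nESCs (875 and 817). In pXEN cells it was 6922 times the nESC level (95% counting interval 1916 to 57164, adjusted p = 1e-06) and 2.28 (SE 0.21) log2 units above pESCs (adjusted p = 0.000133). The pESC level was 1415 times that of nESCs (391 to 11691, adjusted p = 8.86e-06). CLDN8, a claudin of kidney tubule and other tight epithelia, was found almost in pXEN cells alone. It was at 64.9, 56.2 and 83.0 FPKM there, at 0.121 and 0 FPKM in the nESC lines and at 0.350 and 2.73 FPKM in the pESC lines. This was 1095 times the nESC level (196 to 43261, adjusted p = 5.06e-05) and 5.43 (SE 0.57) log2 units above pESCs (adjusted p = 0.000169). The pESC lines held 3 and 25 counts, and the difference from pESCs ranged from 4.63 to 7.54 over the alternatives. CLDN8 lies on chromosome 13, where the median log2 difference was 0.50 from nESCs and 0.41 from pESCs, and where pXEN lines 1 and 3 were 0.39 above line 2.

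3 further claudin rows are uncertain as to their gene or copy. The row named CLDN3 is 384 bases long (3:10715626-10716249), and the reference table pairs its identifier with CLDN9. It was at 18.8, 18.1 and 11.4 FPKM in the pXEN lines, 2.79 and 1.34 FPKM in the nESC lines and 1.86 and 1.54 FPKM in the pESC lines, 2.94 (SE 0.46) log2 units above nESCs (adjusted p = 0.00127) and 3.23 (SE 0.47) above pESCs (adjusted p = 0.00106). Of 2 rows named CLDN7, that on chromosome 3 was at 39.5, 6.53 and 2.30 FPKM in the pXEN lines, 0.126 and 0.328 FPKM in the nESC lines and 0 and 0.0569 FPKM in the pESC lines, so that pXEN line 1 was 17.2 times line 3. It was 6.10 (SE 1.70) log2 units above nESCs (adjusted p = 0.00899) and 519 times the pESC level (92.7 to 20514, adjusted p = 0.00613). Both calls were lost when nESC line 1 or 2 (adjusted p = 0.0741 and 0.0554), or pESC line 1 (0.0556), was left out, and without pXEN line 1 the difference from nESCs was 4.24 log2 units (adjusted p = 0.00544) and the level 153 times that of pESCs (27.0 to 6089, adjusted p = 0.00253). The CLDN7 row on chromosome 12 was at 2.37, 3.56 and 2.49 FPKM in the pXEN lines and at or below 0.0663 FPKM in every ESC line, 83.6 times the nESC level (14.7 to 3332, adjusted p = 0.000746) and 92.5 times the pESC level (16.3 to 3686, adjusted p = 0.00083).

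Among the proteins of the plaque and the other membrane proteins, F11R, which encodes junctional adhesion molecule A, was at 220, 194 and 222 FPKM in the pXEN lines, 17.0 and 17.7 FPKM in the nESC lines and 63.8 and 61.8 FPKM in the pESC lines. The spread within each group was small beside the gaps. F11R was 3.60 (SE 0.10) log2 units above nESCs (adjusted p = 5.4e-07) and 1.76 (SE 0.10) above pESCs (adjusted p = 1.08e-05), and pESCs were 1.84 (SE 0.11) above nESCs (adjusted p = 2.97e-05). CGN, cingulin, which links the tight junction to actomyosin, did not share this order. It was at 95.9, 77.3 and 105 FPKM in the pXEN lines, 7.81 and 5.71 FPKM in the nESC lines and 6.64 and 5.44 FPKM in the pESC lines. The ESC types overlapped (log2 difference -0.18, 95% interval -0.65 to 0.29, adjusted p = 0.548), and pXEN cells were 3.77 (SE 0.18) above nESCs (adjusted p = 5.01e-06) and 3.95 (SE 0.18) above pESCs (adjusted p = 6.98e-06).

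OCLN, occludin, is a row that the reference table names (16:51547447-51598581). It was at 90.7, 95.0 and 76.6 FPKM in the pXEN lines, 0.0979 and 0.0254 FPKM in the nESC lines and 9.27 and 6.47 FPKM in the pESC lines. OCLN was 10.38 (SE 0.66) log2 units above nESCs (adjusted p = 8.41e-07) and 3.48 (SE 0.19) above pESCs (adjusted p = 1.4e-05), and pESCs were 6.90 (SE 0.67) above nESCs (adjusted p = 2.26e-05). MARVELD2, or tricellulin, which sits where 3 cells meet, is named the same way and lies near OCLN on chromosome 16. It was at 21.1, 21.9 and 18.4 FPKM in the pXEN lines, 0.251 and 0.0868 FPKM in the nESC lines and 1.25 and 0.602 FPKM in the pESC lines, 6.86 (SE 0.55) above nESCs (adjusted p = 9.09e-06) and 4.48 (SE 0.32) above pESCs (adjusted p = 3.73e-05). For both, the groups kept the order pXEN, pESC, nESC without overlap. MARVELD3, named by the table, had a lower level with the same order of the pXEN lines over the ESC lines, at 7.62 to 9.43 FPKM against at most 0.402 FPKM.

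ZO proteins are scaffolds found in many cell types. TJP1 (ZO-1), named by the reference table, was at 98.1, 105 and 89.2 FPKM in the pXEN lines, 26.5 and 36.3 FPKM in the nESC lines and 69.1 and 71.2 FPKM in the pESC lines. It was 1.63 (SE 0.15) log2 units above nESCs (adjusted p = 7.6e-05) and 0.48 (SE 0.15) above pESCs (adjusted p = 0.0288), a call lost without pXEN line 1 (adjusted p = 0.0658) or pESC line 1 (0.152) or line 2 (0.129). TJP3 (ZO-3), at 8.87 to 9.76 FPKM in the pXEN lines, 0.363 and 0.403 FPKM in the nESC lines and 6.12 and 7.20 FPKM in the pESC lines, was 4.60 (SE 0.21) log2 units higher in pXEN cells than in nESCs (adjusted p = 2.12e-06) and 0.50 (SE 0.15) higher than in pESCs (adjusted p = 0.0259), and is named after its values were seen. The call against pESCs was lost in 7 of 16 alternatives, among them the omission of pXEN line 1 or 3 or of either pESC line (adjusted p up to 0.194).

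MARVELD1 differed from the other tight junction genes, as the pESC lines were highest. It was at 31.3, 45.9 and 19.3 FPKM in the pXEN lines, 21.6 and 19.0 FPKM in the nESC lines and 58.2 and 65.0 FPKM in the pESC lines. The pXEN lines overlapped the nESC lines, from which they did not differ by the test (log2 difference 0.66, 95% interval -0.09 to 1.42, adjusted p = 0.126), although a call as higher was gained without pXEN line 3 (log2 change 0.93, adjusted p = 0.0138). MARVELD1 was 0.93 (SE 0.31) log2 units lower in pXEN cells than in pESCs (log2 change -0.93, adjusted p = 0.0393), a call lost under each single-library omission but that of pXEN line 2 (adjusted p from 0.0505 to 0.173), and 1.59 (SE 0.35) higher in pESCs than in nESCs (adjusted p = 0.0118), a call lost without nESC line 1 (0.0641) or line 2 (0.0745) or pESC line 2 (0.068). Of the other claudins, CLDN15 and CLDN19 exceeded both ESC types by the test, at 1.95 to 6.12 FPKM in the pXEN lines, and CLDN11 and CLDN23, at or below 1.70 FPKM, were called lower than in nESCs. Against pESCs, the CLDN15 call was lost in 8 of 15 alternatives, among them the omission of pXEN line 2 or of any ESC line (adjusted p up to 0.244), and that of CLDN19 without pESC line 1 (0.0752) or line 2 (0.0762). The CLDN11 call was lost in 8 of 15 alternatives, among them each single-library omission but that of pXEN line 2 (adjusted p up to 0.279), and that of CLDN23 with the replicate block and without nESC line 1 (0.0863) or line 2 (0.0534). CLDN12, at 14.4 to 28.5 FPKM in all lines, and CLDN20 were not called. CLDN10 was not tested but was at 3.999 FPKM in pXEN line 2 and at or below 0.146 FPKM elsewhere, and CLDN5 was at 4.22 FPKM in pESC line 1 and at or below 0.627 FPKM elsewhere. CLDN18 and CLDN22, also untested, were at or below 1.59 FPKM, and CLDN14, CLDN16, CLDN17 and CLDN25 had no count.

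The connexin with the highest level differed between the cell types, although that of nESCs, GJC1, was present in all lines. Of 5 tested, 3 were higher in pXEN cells than in nESCs, and 2 were higher and 2 lower than in pESCs. GJB1, connexin 32 of liver and other endodermal epithelia, was at 73.6, 74.6 and 77.1 FPKM in the pXEN lines, had no count in the nESC lines and was at 0.667 and 0.243 FPKM in the pESC lines (X:64844646-64852108). The 3 pXEN lines differed by less than 4 FPKM. Against the floor of 3 counts per library, the pXEN level of GJB1 was at least 635-fold higher than that of nESCs (adjusted p = 2.95e-06), and it was 7.38 (SE 0.33) log2 units above pESCs (adjusted p = 6.72e-06). GJA1, connexin 43, the most widespread connexin, was at 35.0, 33.7 and 36.5 FPKM in the pXEN lines, 3.02 and 4.61 FPKM in the nESC lines and 245 and 210 FPKM in the pESC lines (1:45543878-45557193). The pXEN lines lay between the ESC types without overlap, 3.19 (SE 0.17) log2 units above nESCs (adjusted p = 7.06e-06) and 6.45-fold below pESCs (log2 change -2.69, SE 0.16, adjusted p = 1.13e-05). The ESC types were 5.88 (SE 0.19) apart (adjusted p = 4.87e-06).

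GJB5, a connexin known from skin and trophoblast, was nearly confined to the pESC lines among these 7 libraries. It was at 15.5 and 17.4 FPKM there, at 0.123, 1.80 and 0.111 FPKM in the pXEN lines and at 0 and 0.104 FPKM in the nESC lines. The difference between pXEN cells and pESCs was -4.52 (SE 0.86) log2 units (adjusted p = 0.00291), and pESCs were 320 times the nESC level (57.1 to 12675, adjusted p = 0.0034). The first ranged from -6.98 to -3.52 over the alternatives. Of the pXEN lines, line 2 held 17 counts and lines 1 and 3 held 1 each. Trophectoderm markers were also higher in the pESC lines, where the 4 listed of that set summed to 43.7 and 39.4 FPKM against at most 1.81 FPKM in the other libraries. TFAP2C held most of this sum and HAND1 and ELF5 were at 0 in the pESC lines. The part of these in the GJB5 level was not tested.

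GJC1, connexin 45, was present in all lines. It was at 40.1, 35.7 and 45.4 FPKM in the pXEN lines, 19.4 and 27.3 FPKM in the nESC lines and 28.7 and 26.9 FPKM in the pESC lines. The pXEN lines were above all ESC lines, by 0.79 (SE 0.18) log2 units over nESCs (adjusted p = 0.0065) and 0.55 (SE 0.17) over pESCs (adjusted p = 0.0332). The first call was lost without nESC line 1 (log2 difference 0.55). The second was lost without pXEN line 1 (adjusted p = 0.0689) or line 3 (0.0875). Leaving out pESC line 1 or 2 also removed it (log2 differences 0.59 and 0.50), as did upper-quartile scaling and the replicate block. As shares of the summed connexin FPKM, GJB1 held 49.4% in pXEN cells, GJC1 81.1% in nESCs and GJA1 83.2% in pESCs. GJA9 was tested and not called in any comparison, and GJA4, GJA5, GJA10, GJB7 and the GJC3 row were at or below 1.22 FPKM and were not tested.

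Where pXEN counts were not low, the pXEN lines resembled one another in these genes about as much as in the other genes compared. Tested rows with few pXEN reads were left out, such as CDH7 (7, 7 and 11 counts) and DSG3 (2, 1 and 1). Over the 33 members kept, the ratio of the highest to the lowest pXEN line had a median of 1.35, and 24.2% were above 2. Over the 15027 genes kept, of the 17447 tested, the median was 1.37 and 18.04% were above 2. The spread of the rows left out was not summarized. Among the 33 members, the widest spreads were those of CDH17 and the CLDN7 row on chromosome 3 given above.

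The proteins that tie junctions to the cytoskeleton were examined from lists fixed beside the junction genes, whose counts stand beside 28.3% higher and 26.2% lower of all genes tested against nESCs and 23.9% and 24.4% against pESCs. Of 11 tested catenins and cadherin anchors, 8 were higher and 3 lower in pXEN cells than in nESCs, and 5 higher and 2 lower than in pESCs (median log2 differences 1.18 and 0.22). CTNNB1, β-catenin, was at 487, 422 and 489 FPKM in the pXEN lines, 305 FPKM in both nESC lines and 255 and 275 FPKM in the pESC lines. Its differences were 0.60 (SE 0.10, adjusted p = 0.00171) from nESCs and 0.82 (SE 0.10, adjusted p = 0.00046) from pESCs, and it lies on chromosome 13, where the medians given above were 0.50 and 0.41. CTNND1, p120-catenin, which holds cadherins at the membrane, was at 89.0, 89.6 and 89.0 FPKM in the pXEN lines, 18.4 and 23.4 FPKM in the nESC lines and 47.7 and 45.9 FPKM in the pESC lines, 2.09 (SE 0.12, adjusted p = 8.11e-06) and 0.94 (SE 0.12, adjusted p = 0.000494) higher in pXEN cells. CTNNA1, α-catenin, was 0.73 (SE 0.14, adjusted p = 0.00295) above nESCs and 0.18 (SE 0.14, adjusted p = 0.31) from pESCs. The neural α-catenin CTNNA2 was lower in pXEN cells than in both, at no more than 0.166 FPKM against 0.662 to 6.64 FPKM.

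The keratin partners and plakins of the desmosome had the largest median difference from nESCs among the partner lists. All 6 tested genes of that list were higher in pXEN cells than in nESCs, 5 of them were higher than in pESCs, and all 6 were higher in pESCs than in nESCs. The medians of pXEN over nESC and over pESC were 8.10 and 2.18. KRT8 and KRT18, the keratin pair of simple epithelia, were at 6963 to 9098 and 2543 to 3349 FPKM in the pXEN lines, at 1892 and 2239 and at 708 and 795 FPKM in the pESC lines, and at no more than 18.8 and 0.546 FPKM in the nESC lines. KRT19 had no count in either nESC line and was at 592 to 1240 FPKM in the pXEN lines. PERP, a desmosomal membrane protein, was at 91.1, 97.9 and 71.2 FPKM in the pXEN lines and at or below 12.5 FPKM elsewhere. PPL, periplakin, was 5.65 (SE 0.31, adjusted p = 4.38e-06) above nESCs and 3.21 (SE 0.23, adjusted p = 3.72e-05) above pESCs.

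Of 11 tested genes of the polarity complexes, which place tight junctions along the cell's axis, 6 were higher than in nESCs, 5 were higher than in pESCs, and 4 were higher than in both (medians 1.26 and 0.33). PARD6B was 2.05 (SE 0.17, adjusted p = 5.26e-05) above nESCs and 1.54 (SE 0.17, adjusted p = 0.000277) above pESCs, and MPP5 was 1.26 (SE 0.17, adjusted p = 0.000544) and 1.49 (SE 0.17, adjusted p = 0.00032) above them. DLG1 and AMOTL2, both on chromosome 13, were at 28.3 to 39.6 and 30.1 to 46.5 FPKM in the pXEN lines, with at most 18.4 and 20.1 FPKM in the ESC lines. Other immunoglobulin-type adhesion genes were mixed: of 8 tested rows, 3 were higher and 4 lower than in nESCs, and 2 higher and 4 lower than in pESCs (medians -0.90 and -2.30). Those lower in both were 4 rows of 2 genes, JAM2 and nectin-1, the latter listed under an older and a newer symbol (PVRL1 at 0.0631 to 0.757 FPKM in the pXEN lines and 6.77 to 22.6 FPKM in the ESC lines). PVRL3, which encodes nectin-3, was at 35.0, 34.4 and 39.5 FPKM in the pXEN lines, 13.1 and 15.9 FPKM in the nESC lines and 8.85 and 9.60 FPKM in the pESC lines, 1.32 (SE 0.12, adjusted p = 7.84e-05) above nESCs and 1.98 (SE 0.12, adjusted p = 1.94e-05) above pESCs, and lies on chromosome 13. IGSF5, on the same chromosome, was at 3.36 to 5.73 FPKM in the pXEN lines and had no count in the ESC lines.

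Of 14 tested rows of transcription factors and splicing factors known to act on epithelial genes, 6 were higher and 6 lower in pXEN cells in each of their comparisons (medians 0.77 and -0.39). TWIST1 and ZEB1, known as repressors of CDH1, were at 15.9 to 28.1 and 9.67 to 11.7 FPKM in the ESC lines and at no more than 0.201 and 0.0903 FPKM in the pXEN lines. The differences between the ESC types were -0.62 (SE 0.34, adjusted p = 0.196) for TWIST1 and -0.16 (SE 0.33, adjusted p = 0.748) for ZEB1. ZEB2, a related repressor, was at 8.89 and 12.1 FPKM in the nESC lines, 2.93 and 3.13 FPKM in the pESC lines and at or below 0.358 FPKM in the pXEN lines, and was lower in pESCs than in nESCs (log2 change -1.80, SE 0.29, adjusted p = 0.00282). ESRP1, a splicing factor of epithelial cells, was at 42.1 to 43.7 FPKM in the pXEN lines, 30.9 and 29.6 FPKM in the pESC lines and at no more than 0.0228 FPKM in the nESC lines. ZEB2, ESRP1, OVOL1 and KLF5 are named outside the rule, after their values were seen. OVOL1 was at 15.8 to 22.3 FPKM in the pXEN lines and at 0.0564 and 0.205 FPKM in the nESC lines. It was at 4.18 and 3.17 FPKM in the pESC lines. KLF5, at 30.5 to 39.7 FPKM in the pXEN lines, was lower in pESCs (0.592 and 0.554 FPKM) than in nESCs (4.68 and 5.62 FPKM). Of the 14 rows, 2 were higher and 3 lower in pESCs than in nESCs, beside 19% and 13.3% of all genes tested. ELF3, an epithelial ETS factor, was at 8.17 to 8.87 FPKM in the pXEN lines and at or below 0.504 FPKM in the ESC lines. EHF, a related factor, was at 1.22 to 1.84 FPKM in the pXEN lines and had no count in the ESC lines. GRHL1, another epithelial factor, was lower in pXEN cells than in both ESC types on both of its rows, at no more than 0.163 FPKM against 0.688 to 2.40 FPKM.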

How the data were processed

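RNA of 7 porcine lines was sequenced from rRNA-depleted, directional libraries. According to the submitters' processing notes, HISAT2 2.0.5, featureCounts 1.5.0-p3 and edgeR 3.22.5 were used with the build Sscrofa10.2; the role and settings of each, the strand setting included, are not given in the sources used here. The authors deposited raw, unscaled counts for each gene and, beside them, FPKM values, which divide a count by the gene's length and a library total.

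Lines were grouped by their labels. The counts were fitted with edgeR 4.0.16 in R 4.3.3 (TMM normalization, filterByExpr by group, quasi-likelihood test, 1 model of all 7 libraries, no block). The biological coefficient of variation was 0.223. Benjamini-Hochberg adjustment ran over 17447 genes, and adjusted p below 0.05 was a call. Standard errors come from the information matrix and the posterior quasi-dispersion. A fold against a group without counts is a bound against 3 counts per library, and where the lower group held 1 to 3 counts a ratio with an exact binomial 95% interval is given; both cover counting error only. The levels are the deposited FPKM.

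Genes were named by rule: junction genes called in at least 1 comparison with a group mean of at least 10 FPKM, fixed anchors of each junction type, and in the partner lists the genes called the same way against both ESC types, at most 5 per list by their smaller fold change, with CTNNA1, CTNNB1 and CTNND1. Exceptions are marked in the text. The genes and lists were chosen with earlier results of these data known. Alternatives were the scaling, the filter, DESeq2 1.42.0, limma 3.58.1 on log2(FPKM + 1) and log2(FPKM + 0.1), a replicate block, only the groups compared, a fold threshold and the omission of each library. Each line is 1 replicate, and the p values measure the spread between lines. Some of the selected genes are counted in the totals but not reported here.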

Additional observations from a re-analysis of the deposited data

How the results depend on the processing

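The number of calls changed with the filter, the fold threshold and single ESC lines. With at least 10 counts required in every library, which leaves out genes silent in 1 cell type, 20 junction genes were tested, and 14 were higher and 2 lower in pXEN cells than in nESCs, 11 higher and 4 lower than in pESCs, and 10 higher and 2 lower in pESCs than in nESCs, beside 54.6%, 46.1% and 31.6% of the 12261 genes then tested. The partner and regulator lists then gave 20 higher and 4 lower (of 35 and 26), 17 and 4 (of 28 and 25), and 15 and 4 (of 25 and 8) in the same order of comparisons. Without a filter, 8 junction genes were lower in pXEN cells than in nESCs. With an absolute log2 fold change above 3 required as well, 8 were higher and 3 lower in pXEN cells than in pESCs, and 10 higher and 1 lower in pESCs than in nESCs. Leaving out each library in turn gave 23 to 27 junction genes higher and 3 to 6 lower in pXEN cells than in nESCs, 15 to 22 higher and 5 to 9 lower than in pESCs, and 14 to 21 higher and 1 to 4 lower in pESCs than in nESCs. For the partner lists it gave 33 to 38 and 20 to 26, 21 to 30 and 20 to 27, and 19 to 30 and 4 to 12. A cell type reduced to 1 line is assumed to vary like the others.

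Of 99 called fold changes of the reported junction genes and rows named by the reference table, 70 kept direction and call in every alternative, and none changed sign. Over their 1526 alternative fits, 105 lost the call. Among the uncalled differences of the reported genes, that of JUP between pXEN cells and pESCs changed sign. JUP, at 0.00 in the reported fit, was at -0.0025 with DESeq2's size factors and with its Wald test (-0.0025), -0.082 with upper-quartile scaling, -0.0045 without a filter, -0.017 with the filter of 10 counts, -0.0098 and -0.0099 with limma, -0.022 with only the groups compared, and between -0.036 and 0.072 with a library left out. Upper-quartile scaling moved the median of all genes by -0.16 for pXEN over nESC, and by less than 0.1 in the other comparisons. Counting in the 8 rows named by the reference table, an alternative chosen after seeing the data, added 6 higher genes in each pXEN comparison.

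Lines with the same number showed little shared deviation, with correlations of their deviations over 11836 genes between -0.014 and 0.12. Lines of different number were not compared, so these values cannot tell whether the numbers pair the lines. A fit with the replicate block called 8274, 6993 and 5041 of all genes in the 3 comparisons, against 9514, 8429 and 5621 without it.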

Other observations

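Protocadherins, the larger family of cadherin-like proteins that signal more than they hold cells together, were examined as a list of their own. In pXEN cells they came down to a few genes. Of 27 tested, 5 were higher and 13 lower than in nESCs, and 4 higher and 12 lower than in pESCs, where 28.3% and 26.2%, and 23.9% and 24.4%, of all genes tested were called higher and lower. The medians were -1.29 and -1.76 log2 units. PCDH7 was at 184, 125 and 176 FPKM in the pXEN lines, above every cadherin in pXEN line 1 and line 3, and at 0.297 and 0.529 FPKM in the nESC lines and 5.31 and 4.19 FPKM in the pESC lines. It was 8.60 (SE 0.32) log2 units above nESCs (adjusted p = 1.17e-06) and 5.10 (SE 0.21) above pESCs (adjusted p = 6.17e-06). PCDH1, named outside the rule after its values were seen, was at 53.8, 36.7 and 49.0 FPKM in the pXEN lines, 1.37 and 0.966 FPKM in the nESC lines and 9.59 and 7.75 FPKM in the pESC lines, 5.30 (SE 0.24) log2 units above nESCs (adjusted p = 3.08e-06) and 2.43 (SE 0.19) above pESCs (adjusted p = 6.84e-05). PCDHGB4 was also higher than in both, at 0.507 to 1.25 FPKM against at most 0.107 FPKM. PCDH19 was at 6.70 to 10.5 FPKM in the ESC lines and at or below 0.405 FPKM in the pXEN lines. PCDH8 had no count in any pXEN line and was at 0.525 to 2.25 FPKM in the ESC lines, and PCDH10 was at no more than 0.0225 FPKM in the pXEN lines and 0.123 to 0.393 FPKM in the ESC lines. The clustered protocadherins may share reads between similar members, which was not tested here, so their counts are uncertain.

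Of 3 tested connexins of the GJD group and pannexins, PANX2 exceeded the level of both ESC types by the test, at 44.1, 44.3 and 36.0 FPKM in the pXEN lines, 19.6 and 17.4 FPKM in the nESC lines and 19.5 and 26.2 FPKM in the pESC lines. PANX1, named outside the rule after its values were seen, was at 5.47 to 5.999 FPKM in the pXEN lines, 8.36 and 6.88 FPKM in the nESC lines and 9.86 and 8.38 FPKM in the pESC lines, and was called lower than in pESCs alone (log2 change -0.65, SE 0.18, adjusted p = 0.0163). The shares of all genes called are those given above.

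Endothelial and neural markers were taken as checks of other cell types. The endothelial list summed to 16.4 and 20.2 FPKM in the pESC lines, nearly all of it TEK, and to at most 0.920 FPKM elsewhere. The neural list summed to 133 to 193 FPKM in the pXEN lines, mostly OTX2, which visceral endoderm also expresses, to 48.9 and 49.3 FPKM in the nESC lines and to 206 and 156 FPKM in the pESC lines, where ZIC1 was at 113 and 87.5 FPKM.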
